A study of Homo sapiens with 9 samples.

Results

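The genes of cholesterol and fatty acid synthesis were followed in HAL-01, an acute lymphoblastic leukemia line of the B lineage with the TCF3::HLF fusion, after editing of an enhancer of MEF2C. The set held 34 of the 62700 annotated genes, taken by symbol under a rule on known roles that uses no measured value. Earlier results of these data were known when its members were chosen. It comprised 18 genes of sterol synthesis, 7 of fatty acid synthesis, 5 that control the SREBP transcription factors and 4 of sterol movement and efflux. Of the 34 genes, 33 passed the filter on low counts, as did 14436 genes in all. ABCG1 did not pass it.

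The libraries were poly(A) RNA-seq libraries of bulk cultures collected on day 13, 3 per guide. All cells stably expressed Cas9GFP, the controls included. The enhancer KO cultures (genotype Cas9GFP, MEF2C Enhancer KO) carried sgRNA_96 or sgRNA_97, and the control cultures (genotype Cas9GFP, Ctr_SCR) carried a scrambled guide, SCR1. Guides were delivered with lentivirus into bulk cultures with no cloning step described, and the share of edited cells on day 13 was not analysed here. In bulk RNA a lower level in every cell and a lower level in some of the cells cannot be told apart, nor can fewer cells of a type and less RNA per cell. The study lists a pair of guides, E.1 and E.2, against the HLF motif of this enhancer, and which of them corresponds to sgRNA_96 or to sgRNA_97 is not given in the sources used here. They are shown because they define the perturbation, with the letters that match TTANGTAA on either strand, the type of site bound by HLF, in capitals.
E.1: tagcaTTACATAAtacatgt
E.2: ttagcaTTACATAAtacatg

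Cells make cholesterol from acetyl-CoA through the mevalonate pathway, which yields isoprenoid units, then squalene, then lanosterol, which a last group of enzymes trims to cholesterol. The transcription factors SREBP-1 and SREBP-2, encoded by SREBF1 and SREBF2, are held in the endoplasmic reticulum by SCAP and the INSIG proteins when sterols are plentiful and are released and cleaved when sterols fall, after which they activate most genes of both pathways. When sterols are in excess, the LXR receptors instead induce the exporters ABCA1 and ABCG1 and the ubiquitin ligase MYLIP. Lymphoid blasts draw on these pathways for new membrane.

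Total counts were between 15212462 and 29777361 per library, with the deepest library in the control group (SCR1 replicate 1). Mitochondrial genes took 5.97 to 6.35% of the counts in SCR1 and 6.22 to 7.01% in the KO libraries. The first principal component, with 22.1% of the variance, separated the KO from the control libraries, and on the second, with 15.4%, sgRNA_96 replicate 1 (30.8) and sgRNA_97 replicate 1 (-33.99) stood apart from the other libraries (-4.60 to 9.39). All 12 B lineage markers examined were expressed at 1 CPM or more, and their summed level was 5675 to 5851 CPM in SCR1 and 6124 to 6442 CPM in the KO libraries. The members did not move together: DNTT (2041 to 2131 CPM in SCR1, 2279 to 2560 in KO) and RAG1 (255.5 to 293 in SCR1, 442 to 528 in KO) were higher in every KO library, while IGLL1 (875 to 990 in SCR1, 718.5 to 898 in KO) and EBF1 (244 to 261 in SCR1, 226 to 245 in KO) lay below every control in 5 of 6 KO libraries. CD3D, CD3E and CD3G of T cells, ELANE of myeloid cells, COL1A2, DCN and LUM of stromal cells and HBB, HBA1 and ALAS2 of erythroid cells were at 0 in every library. Summed levels in SCR1 and KO were 52.5 to 54.4 and 41.0 to 50.3 CPM for the 5 T cell markers, mostly from TRAC, and 26.1 to 27.7 and 30.1 to 35.9 CPM for the 6 myeloid markers, of which ITGAM and MPO were higher in every KO library and CSF1R was not. They were 19.6 to 24.1 and 17.4 to 20.9 CPM for the 5 stromal markers and at most 0.456 CPM for the 5 erythroid markers. The marker sums of the B lineage, T cell and myeloid lists therefore differed between the groups without overlap, and their part in the results given here was not tested. MEF2C, the gene contacted by the edited enhancer, was at 559.5, 559 and 536 CPM in SCR1, 495, 498 and 510.2 CPM with sgRNA_96 and 553, 505 and 495 CPM with sgRNA_97. In 5 of 6 KO libraries it lay below all controls (log2 fold change -0.12, SE 0.04, adjusted p = 0.0620 in edgeR, exact two-sided permutation p = 0.0238, smallest possible p 0.0119). The adjusted p was between 0.0143 and 0.184 over 17 alternative settings, and under the threshold in 3 of them.

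Most sterol and fatty acid synthesis genes were lower after enhancer KO, whereas none of the 5 SREBP control genes in the set passed the test on gene counts in edgeR. Of the 33 genes tested, 21 fell and 0 rose at an adjusted p under 0.05 in the comparison of the 6 KO libraries with the 3 SCR1 libraries, against 10.6% of all genes tested that fell and 10.1% that rose. At an unadjusted p under 0.05 the count was 24, against 4834 of all 14436 genes tested. This adds SC5D and INSIG1 on the lower side and ABCA1 on the higher side. DESeq2 called 22 lower, the 22nd being INSIG1, and 1 higher, ABCA1, where 11.5% of all genes tested were lower. All 21 were sterol or fatty acid synthesis genes, with 15 of 18 in the former group, 6 of 7 in the latter, 0 of 5 SREBP control genes and 0 of 3 tested genes of sterol movement and efflux. The falls were modest, from 11.0% for IDI1 to 31.9% for ACAT2, with a median log2 fold change of -0.33 among the 21 genes. The median absolute log2 change of all genes called in this comparison was 0.28. In 21 of the 33 genes every KO value lay below every control value, which held for 10.3% of all genes tested, and 20 of these 21 were among the genes called. Per library, the median log2 ratio of the 18 sterol synthesis genes to their SCR1 mean ran from -0.43 (sgRNA_97 replicate 3) to -0.23 (sgRNA_96 replicate 1) in the KO libraries and from -0.02 to 0.02 in SCR1. For the 7 fatty acid synthesis genes it ran from -0.36 to -0.18 in the KO libraries and from -0.01 to 0.01 in SCR1. For the 5 SREBP control genes these ranges overlapped, at -0.09 to 0.04 and -0.04 to 0.01.

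**Figure D1:**
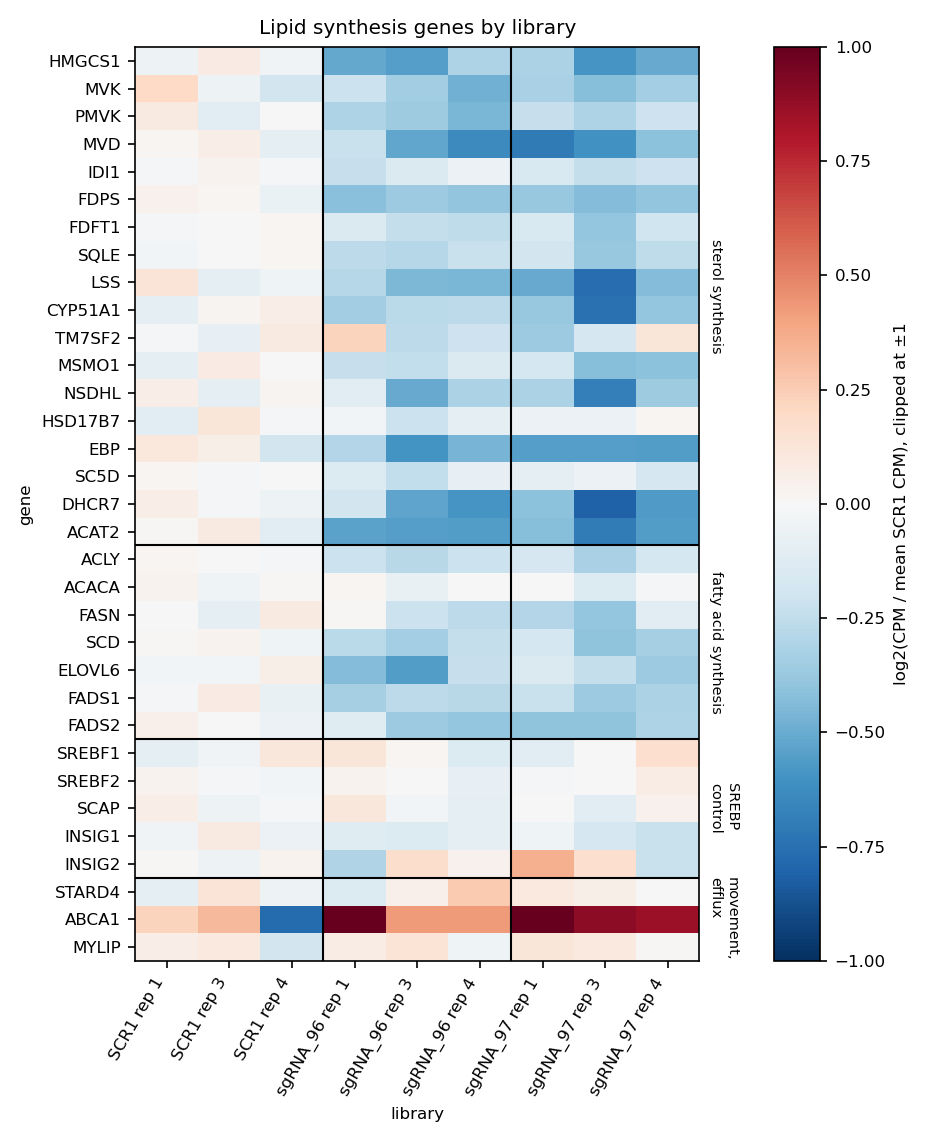
Log2 ratio of the CPM in each of the 9 libraries (columns) to the SCR1 mean, for the 33 genes tested (rows), grouped by role, with colors limited to 1 in either direction. The 6 KO columns are blue down nearly all sterol and fatty acid synthesis rows (library medians -0.43 to -0.23 and -0.36 to -0.18) and pale in the SREBP control rows.

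The largest fall was that of ACAT2, at the entry into the mevalonate pathway. Levels are given as CPM, counts divided by the TMM-scaled library size and multiplied by 1000000, always for replicates 1, 3 and 4 in that order, and each p was adjusted by the Benjamini-Hochberg method over the 14436 genes tested with edgeR's quasi-likelihood fit. ACAT2 (ENSG00000120437.9, chr6:159762045-159779112, plus strand, hg38), the cytosolic thiolase that joins acetyl-CoA units to acetoacetyl-CoA, was at 160.0, 169 and 147 CPM in SCR1, 109, 108 and 108 CPM with sgRNA_96 and 118, 97.6 and 108 CPM with sgRNA_97. Its fall (log2 fold change -0.55, SE 0.06, adjusted p = 6.62e-06) was the largest of the set on the log2 scale, and the KO and control values did not overlap. ACAT2 overlaps SOD2 and TCP1 on the opposite strand, and whether strand was used in counting is not given in the sources used here. HMGCS1 (ENSG00000112972.15, chr5:43287470-43313512, minus strand), the HMG-CoA synthase that takes the next step, was at 378, 414 and 382 CPM in SCR1, 275, 267 and 315 CPM with sgRNA_96 and 315, 260.5 and 276 CPM with sgRNA_97. All 6 KO libraries lay below the lowest control (log2 fold change -0.46, SE 0.06, adjusted p = 7.83e-05). Of its counts, 94.2% belonged to a single annotated transcript, HMGCS1-202, with 93.7 to 95.2% in SCR1 and 92.7 to 95.6% in the KO libraries.

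The kinases and the decarboxylase that convert mevalonate into isoprenoid units fell as well. MVK, mevalonate kinase, was at 33.0, 27.8 and 25.3 CPM in SCR1, 24.7, 22.6 and 20.6 CPM with sgRNA_96 and 23.0, 21.3 and 22.7 CPM with sgRNA_97 (log2 fold change -0.36, SE 0.08, adjusted p = 0.00668). PMVK, phosphomevalonate kinase, was at 25.3, 22.1 and 23.9 CPM in SCR1, 19.2, 18.5 and 17.3 CPM with sgRNA_96 and 20.2, 19.2 and 20.6 CPM with sgRNA_97 (log2 fold change -0.31, SE 0.07, adjusted p = 0.00809). In neither gene did the groups overlap, although SCR1 replicate 1 was the highest library for both, and without that library MVK and PMVK no longer passed the threshold. MVD, the decarboxylase that yields isopentenyl pyrophosphate, was at 53.6, 55.4 and 49.5 CPM in SCR1, 45.3, 36.9 and 33.96 CPM with sgRNA_96 and 32.4, 34.6 and 39.8 CPM with sgRNA_97 (log2 fold change -0.51, SE 0.08, adjusted p = 5.68e-04). Its KO values ranged widely, with sgRNA_96 replicate 1 the highest of them and sgRNA_97 replicate 1 the lowest. IDI1, the isomerase of isopentenyl pyrophosphate, was at 207, 214 and 206 CPM in SCR1, 178, 189 and 200.3 CPM with sgRNA_96 and 188, 177 and 181 CPM with sgRNA_97. It had the smallest fall that passed the test (log2 fold change -0.17, SE 0.04, adjusted p = 0.0150), and its highest KO value, in sgRNA_96 replicate 4, was close to the lowest control. MVK lies opposite MMAB on the other strand, and IDI1 has annotated pseudogenes with which reads can be shared.

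The synthases that build squalene also fell. FDPS (ENSG00000160752.15, chr1:155308748-155320666, plus strand), farnesyl pyrophosphate synthase, stands at the branch toward isoprenoids and sterols and was at 263, 258 and 243 CPM in SCR1, 191, 198 and 194 CPM with sgRNA_96 and 196, 189 and 194 CPM with sgRNA_97. The 6 KO libraries lay close together and below the lowest control, which gave the smallest p of the set (log2 fold change -0.40, SE 0.04, adjusted p = 5.77e-06). FDPS has 8 annotated pseudogenes and an antisense neighbor, RUSC1-AS1, so its counts depend on how shared reads were divided. FDFT1, squalene synthase, was at 194, 195 and 198 CPM in SCR1, 177, 166 and 165 CPM with sgRNA_96 and 177, 150.2 and 170.1 CPM with sgRNA_97 (log2 fold change -0.23, SE 0.05, adjusted p = 0.00439). SQLE, squalene epoxidase, often regarded as a rate-limiting enzyme of sterol synthesis, was at 132, 135 and 136 CPM in SCR1, 112, 110.3 and 115 CPM with sgRNA_96 and 118, 103 and 112 CPM with sgRNA_97 (log2 fold change -0.26, SE 0.05, adjusted p = 8.33e-04). Both genes were lower in every KO library than in any control, with sgRNA_97 replicate 3 the lowest library for each. LSS, which closes the ring to lanosterol, was at 127, 109 and 113 CPM in SCR1, 95.2, 85.2 and 84.6 CPM with sgRNA_96 and 82.2, 68.7 and 86.3 CPM with sgRNA_97 (log2 fold change -0.48, SE 0.07, adjusted p = 3.76e-04). Here too sgRNA_97 replicate 3 was the lowest and no KO value reached the controls.

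Among the enzymes that convert lanosterol to cholesterol, EBP and DHCR7 fell most. EBP (ENSG00000147155.11, chrX:48521799-48528716, plus strand), the sterol isomerase, was at 97.4, 94.3 and 79.8 CPM in SCR1, 73.9, 59.9 and 65.5 CPM with sgRNA_96 and 61.8, 61.9 and 61.4 CPM with sgRNA_97 (log2 fold change -0.50, SE 0.07, adjusted p = 1.41e-04). DHCR7, the reductase that makes cholesterol in a last step, was at 104, 97.3 and 95.5 CPM in SCR1, 87.1, 68.6 and 65.7 CPM with sgRNA_96 and 74.5, 56.3 and 66.7 CPM with sgRNA_97 (log2 fold change -0.51, SE 0.09, adjusted p = 0.00100). In both genes sgRNA_96 replicate 1 was the KO library nearest the controls without reaching them. CYP51A1, lanosterol demethylase, was at 63.4, 69.4 and 71.0 CPM in SCR1, 53.3, 56.5 and 56.5 CPM with sgRNA_96 and 52.2, 40.5 and 52.0 CPM with sgRNA_97 (log2 fold change -0.39, SE 0.08, adjusted p = 0.00344), with sgRNA_97 replicate 3 far below the other KO libraries. MSMO1, the methylsterol monooxygenase, was at 93.5, 106 and 99.6 CPM in SCR1, 84.6, 83.9 and 89.9 CPM with sgRNA_96 and 88.3, 74.2 and 75.1 CPM with sgRNA_97 (log2 fold change -0.27, SE 0.06, adjusted p = 0.00763). NSDHL, a sterol dehydrogenase of the same demethylation steps, was at 32.9, 29.4 and 31.9 CPM in SCR1, 29.0, 22.1 and 25.2 CPM with sgRNA_96 and 25.1, 19.6 and 24.5 CPM with sgRNA_97 (log2 fold change -0.38, SE 0.09, adjusted p = 0.00982). All 3 of these genes kept KO and control values apart, NSDHL only narrowly, with sgRNA_96 replicate 1 just under the lowest control, and without SCR1 replicate 1 NSDHL no longer passed the threshold. CYP51A1 overlaps AKAP9 on the opposite strand and an unnamed gene on its own strand. The other sterol synthesis genes did not pass the threshold, at log2 fold changes of -0.10 for TM7SF2, -0.07 for HSD17B7 and -0.13 for SC5D, with adjusted p-values of 0.581, 0.583 and 0.0872. SC5D nevertheless was lower in every KO library (48.4 to 55.2 CPM) than in any control (56.7 to 58.4 CPM). All 18 fitted changes of the group were negative, with a median log2 fold change of -0.37 against 0.00 for all genes tested.

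**Figure D2:**
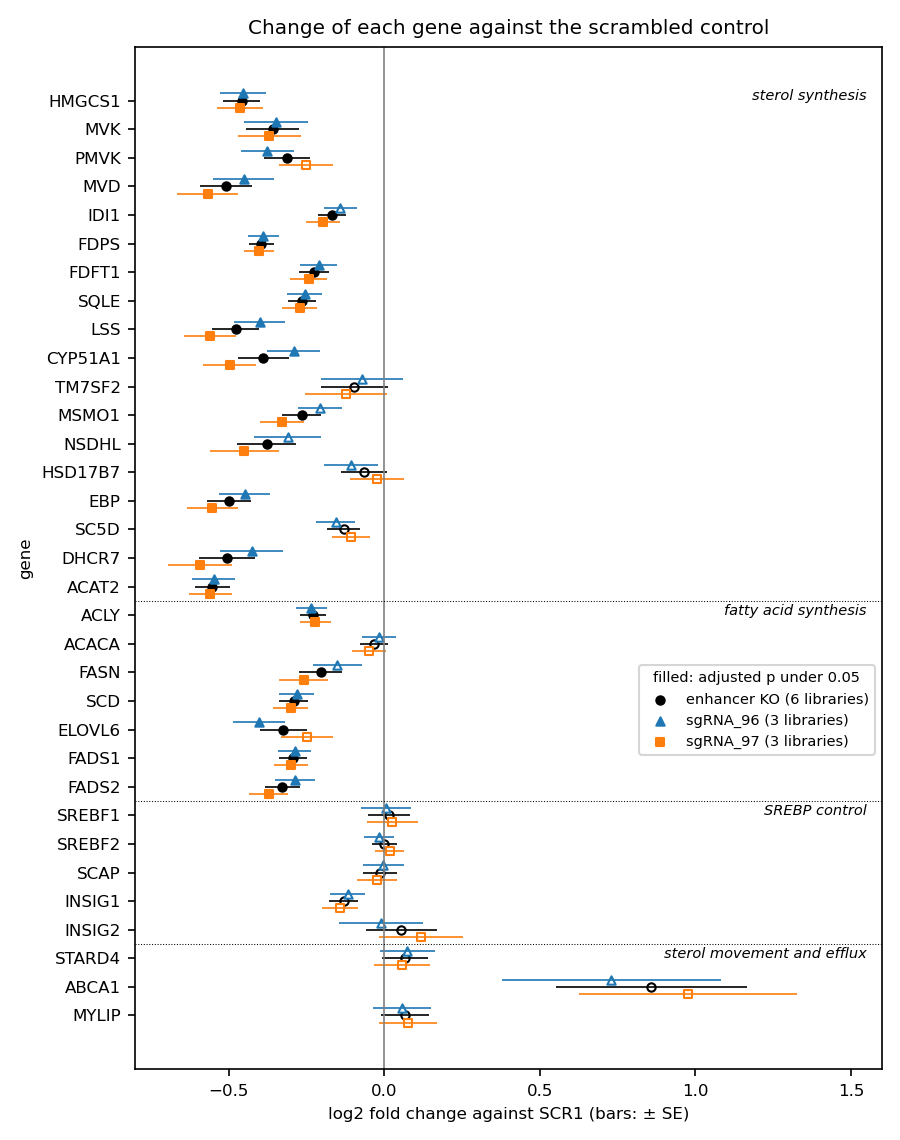
Log2 fold change against SCR1 (horizontal axis, bars ± SE) for the 33 genes tested in pathway order, for the 6 KO libraries together and for each guide, with filled symbols for an adjusted p under 0.05. Sterol synthesis runs from ACAT2 at -0.55 to HSD17B7 at -0.07, the SREBP control genes lie between -0.13 and 0.06, and ABCA1 stands alone at 0.86 with the widest error.

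In fatty acid synthesis 6 of 7 genes fell, with log2 fold changes from -0.33 to -0.20. ACLY, the citrate lyase that supplies cytosolic acetyl-CoA to both pathways, was at 505, 497 and 494 CPM in SCR1, 429, 412 and 431 CPM with sgRNA_96 and 443, 398 and 442 CPM with sgRNA_97 (log2 fold change -0.23, SE 0.04, adjusted p = 0.00112). SCD, the desaturase that makes oleate from stearate, was at 702, 713 and 675 CPM in SCR1, 578, 552 and 590.3 CPM with sgRNA_96 and 616, 528 and 554 CPM with sgRNA_97 (log2 fold change -0.29, SE 0.05, adjusted p = 3.83e-04). Neither gene overlapped between groups. FADS1 and FADS2, the front-end desaturases that make polyunsaturated fatty acids, lie side by side on chromosome 11, where the annotation overlaps them on opposite strands. FADS2 also overlaps FEN1 on its own strand. FADS1 was at 276, 294 and 265 CPM in SCR1, 221, 232 and 229.7 CPM with sgRNA_96 and 238, 216 and 223 CPM with sgRNA_97 (log2 fold change -0.29, SE 0.04, adjusted p = 2.60e-04). FADS2 was at 456, 440.5 and 423 CPM in SCR1, 404, 342 and 337 CPM with sgRNA_96 and 334, 332 and 355 CPM with sgRNA_97 (log2 fold change -0.33, SE 0.06, adjusted p = 7.13e-04). All KO values of the pair lay below the controls, and sgRNA_96 replicate 1 was the highest KO library for FADS2.

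ELOVL6, which elongates palmitate, was at 49.4, 49.4 and 52.3 CPM in SCR1, 37.2, 34.2 and 43.0 CPM with sgRNA_96 and 45.5, 42.6 and 39.1 CPM with sgRNA_97 (log2 fold change -0.32, SE 0.07, adjusted p = 0.00636). Its groups did not overlap, with sgRNA_96 replicate 3 the lowest. FASN, the fatty acid synthase, was at 352, 331 and 375 CPM in SCR1, 356, 304 and 295 CPM with sgRNA_96 and 288, 269.9 and 328 CPM with sgRNA_97. It was the only called gene of the set whose groups overlapped, because sgRNA_96 replicate 1 lay within the control range. Its fall barely passed the test (log2 fold change -0.20, SE 0.07, adjusted p = 0.0457), and it did not pass without any 1 of 6 libraries (sgRNA_96 replicate 3 or 4, sgRNA_97 replicate 1 or 3, SCR1 replicate 1 or 4), with adjusted p-values over all alternatives from 6.53e-04 to 0.298. ACACA, acetyl-CoA carboxylase, which commits acetyl-CoA to fatty acids, did not pass (log2 fold change -0.03, adjusted p = 0.652). It was at 130.5 ± 3.66 CPM in SCR1 (SD, n = 3) and 128 ± 5.22 CPM in the KO libraries (SD, n = 6). The median log2 fold change of the 7 genes was -0.29.

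Per unit of transcript length, the control levels of the synthesis genes spanned 366.6 ± 12.95 TPM for FDPS (SD, n = 3), 209 ± 8.73 TPM for FADS2, 189 ± 8.69 TPM for HMGCS1 and 176 ± 7.83 TPM for SCD down to 14.8 ± 3.65 TPM for ELOVL6. The corresponding KO levels were 288 ± 9.54, 171 ± 15.0, 139 ± 13.5, 145 ± 8.94 and 11.4 ± 3.09 TPM (SD, n = 6). TPM counts transcripts relative to all others in the library, so it compares genes of different length.

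**Figure D3:**
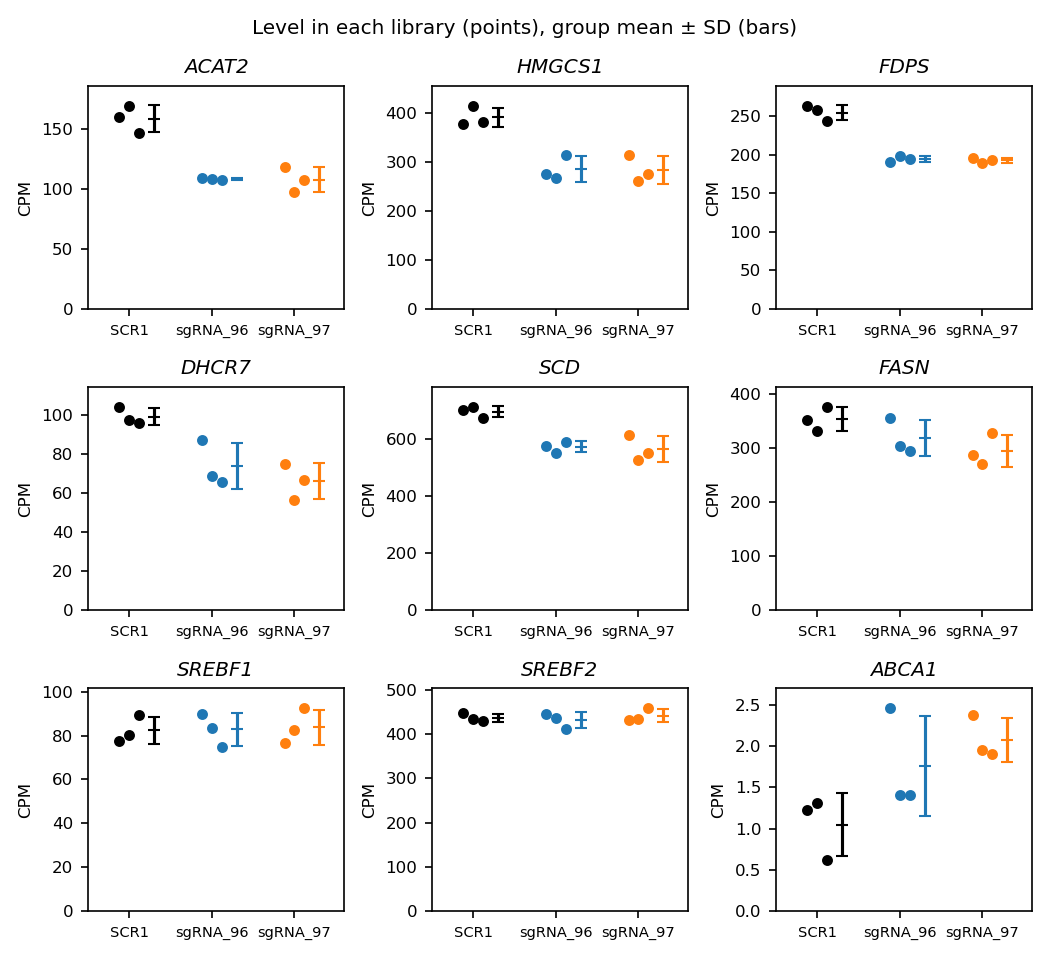
CPM of 9 genes in each library (points, replicates 1, 3 and 4 from left to right) with the group mean ± SD beside them and axes that start at 0. ACAT2, HMGCS1, FDPS, DHCR7 and SCD show no overlap between SCR1 and either guide, FASN overlaps at sgRNA_96 replicate 1 (356 CPM), SREBF1 and SREBF2 overlap throughout, and ABCA1 is at 2.46 CPM or less in all libraries.

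Neither transcription factor gene of the pathway passed the test at the level of gene counts. SREBF2 (ENSG00000198911.13, chr22:41833105-41907306, plus strand), which encodes the main activator of sterol synthesis, was at 447, 433 and 428 CPM in SCR1, 446, 436 and 411 CPM with sgRNA_96 and 431, 435 and 458 CPM with sgRNA_97, with overlapping groups (log2 fold change 0.00, SE 0.04, adjusted p = 0.996). SREBF1 (ENSG00000072310.18, chr17:17810399-17837002, minus strand), which encodes the main activator of fatty acid synthesis, was at 77.6, 80.5 and 89.3 CPM in SCR1, 89.8, 83.7 and 75.0 CPM with sgRNA_96 and 76.7, 82.5 and 92.5 CPM with sgRNA_97, again with overlapping groups (log2 fold change 0.02, SE 0.07, adjusted p = 0.896). The SE of the SREBF2 change was smaller than that of HMGCS1, whose fall passed the test. SCAP, the escort of the SREBP proteins, and INSIG2, one of their anchors, had log2 fold changes of -0.01 (SE 0.05) and 0.06 (SE 0.12), with adjusted p-values of 0.893 and 0.780. INSIG1, an anchor that is itself a well-known SREBP target, was at 227, 248 and 224 CPM in SCR1, 214, 212 and 218 CPM with sgRNA_96 and 226, 207 and 199.9 CPM with sgRNA_97. It did not pass the threshold (log2 fold change -0.13, SE 0.05, adjusted p = 0.0617), with sgRNA_97 replicate 1 inside the control range. Its adjusted p was 0.0354 without that library and 0.0342 in DESeq2, and between 0.0299 and 0.282 over the 17 alternatives.

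The estimated counts of SREBF1 are also given by annotated transcript, as a description with no test, because the split of shared reads between transcripts is uncertain. SREBF1-202, a protein-coding transcript, held 39.7, 39.8 and 32.9% of the gene's counts in SCR1, 17.3, 20.6 and 18.8% with sgRNA_96 and 18.03, 9.10 and 30.5% with sgRNA_97. All 6 KO shares lay below the lowest control share, and how often this held for other transcripts was not counted. SREBF1-201, the other main protein-coding transcript, overlapped between groups at 24.3 to 35.2% in SCR1 and 27.4 to 38.01% in the KO libraries. The 17 annotated retained-intron and nonsense-mediated decay transcripts together held 19.5 to 33.96% in SCR1 and 27.8 to 55.8% in the KO libraries, which overlapped. When each gene's effective length entered the fit as an offset, the SREBF1 log2 fold change became 0.30 with an adjusted p of 0.0437, and in limma on log2(TPM + 1) it was 0.30 with an adjusted p of 0.0486. Over the 17 alternatives the log2 fold change lay between -0.03 and 0.31 and the adjusted p between 0.0437 and 0.985. The call for SREBF1 therefore depends on whether transcript length is taken into account. Overlap of SREBF1 with RAI1 on the opposite strand was not resolved.

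**Figure D4:**
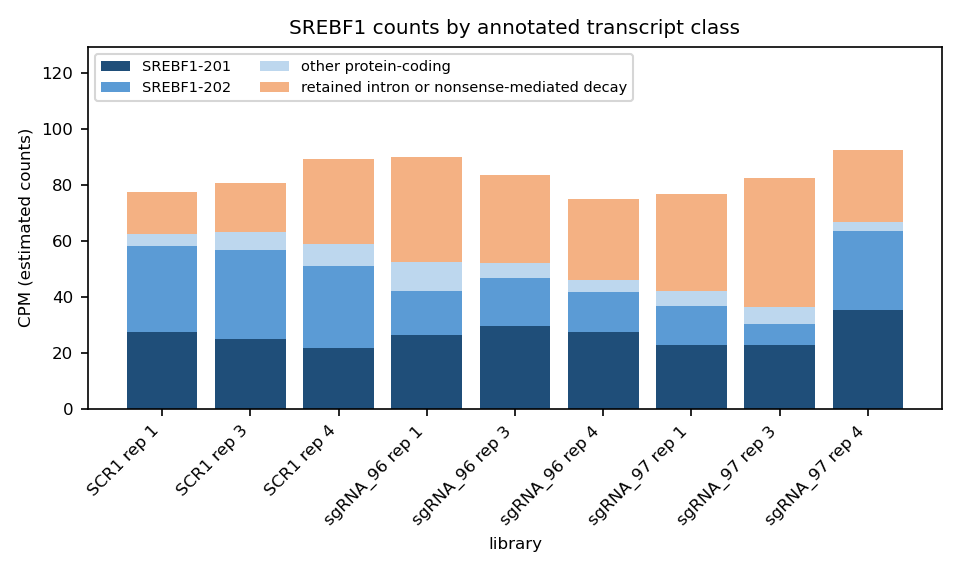
SREBF1 estimated counts (CPM) in each library, stacked by SREBF1-201, SREBF1-202, the other protein-coding transcripts and the 17 retained-intron or nonsense-mediated decay transcripts. The total height overlaps between groups (77.6 to 89.3 CPM in SCR1), while the SREBF1-202 segment is 29.4 to 32.1 CPM in SCR1 and 7.50 to 28.2 CPM in the KO libraries.

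None of the 3 tested genes of sterol movement and efflux passed the test in edgeR. ABCA1 (ENSG00000165029.17, chr9:104781006-104928155, minus strand), the exporter of cholesterol to lipoproteins, was at 1.22, 1.31 and 0.615 CPM in SCR1, 2.46, 1.41 and 1.41 CPM with sgRNA_96 and 2.38, 1.95 and 1.90 CPM with sgRNA_97, from 13 to 39 counts per library. All KO values lay above all control values, but the difference did not pass the threshold (log2 fold change 0.86, SE 0.31, adjusted p = 0.0586). Its adjusted p was 0.0364 in DESeq2, 0.0448 with the replicate number as a block and 0.0485 without sgRNA_96 replicate 4, and up to 0.257 over the 17 alternatives. ABCG1, a related exporter, had counts of 0, 0 and 2 in SCR1, 1, 1 and 0 with sgRNA_96 and 7, 0 and 0 with sgRNA_97, too few to test. MYLIP, the ubiquitin ligase induced by LXR, was at 22.3, 22.8 and 18.8 CPM in SCR1, 22.4, 23.4 and 20.6 CPM with sgRNA_96 and 23.1, 22.7 and 21.4 CPM with sgRNA_97, with overlapping groups (log2 fold change 0.07, SE 0.08, adjusted p = 0.596). STARD4, which carries cholesterol between membranes and is itself a sterol-regulated gene, had a log2 fold change of 0.07 (SE 0.07, adjusted p = 0.577).

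Each guide was then compared with SCR1 on its own. Both comparisons used the same 3 control libraries, so their results are not independent and are set side by side without a measure of agreement. With sgRNA_96, 17 of the 33 genes fell and 0 rose, against 5.41% of all genes tested that fell. With sgRNA_97, 19 fell and 0 rose, against 7.76%. Of the 21 genes called in enhancer KO, 15 passed with both guides and 6 with 1 guide only. IDI1, MSMO1, NSDHL and FASN passed with sgRNA_97, with adjusted p-values of 0.101, 0.0714, 0.0772 and 0.238 with sgRNA_96. PMVK and ELOVL6 passed with sgRNA_96, with adjusted p-values of 0.0629 and 0.0554 with sgRNA_97. The median log2 fold change of sterol synthesis was -0.33 with sgRNA_96 and -0.39 with sgRNA_97, and that of fatty acid synthesis -0.28 and -0.26.

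The guides were also compared directly. No gene of the set differed between sgRNA_97 and sgRNA_96 at an adjusted p under 0.05 in edgeR or in DESeq2, where 0.0208% of all genes tested did in edgeR. Only 1 of the 33 genes, CYP51A1, had an unadjusted p under 0.05, a share similar to the 503 of all 14436 genes tested. Fitted differences ran from -0.21 for CYP51A1 to 0.25 for ABCA1 on the log2 scale. Outside sterol movement and efflux their SE was at most 0.136, and the absence of calls does not show that the guides act alike. The sgRNA_96 count rests partly on single libraries, with 9 genes called without sgRNA_96 replicate 3 and 11 without SCR1 replicate 1. The share of all genes tested that fell with sgRNA_96 dropped as well, from 5.41% to 2.19% and 2.17%.

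Other genes of lipid metabolism were counted in lists chosen by known function. Of 10 further genes known to respond to SREBP, 8 were tested, 5 fell and 1 rose, against 10.6% of all genes tested that fell and 10.1% that rose. TMEM97, a sterol-regulated membrane protein, was lower at a log2 fold change of -0.45 (SE 0.07, adjusted p = 2.00e-04). MMAB, an enzyme of cobalamin metabolism that overlaps MVK on the opposite strand, fell by 0.28, SLC25A1, the mitochondrial citrate carrier that exports citrate to ACLY, by 0.27 and CYB5B, an electron carrier, by 0.16 on the log2 scale, with adjusted p-values of 0.00275, 0.0255 and 0.0251. The median of the 8 genes was -0.22.

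Of 19 genes of fatty acid activation, elongation, desaturation and oxidation, 7 fell and 2 rose, with a median log2 fold change of -0.08. Over all genes tested 10.6% fell and 10.1% rose, so the rises in this list are near that share. SCD5, another stearoyl-CoA desaturase, had -0.42 (SE 0.09, adjusted p = 0.00451) and TECR, the reductase that ends each elongation cycle, -0.26 (SE 0.06, adjusted p = 0.00776). Among the rises was that of FADS3, a desaturase of the FADS cluster, at 0.25 (SE 0.07, adjusted p = 0.0227). Of 15 genes of sterol uptake, esterification and trafficking, 1 fell and 0 rose in edgeR. The gene that fell was NPC1, which releases cholesterol from lysosomes (log2 fold change -0.26, SE 0.07, adjusted p = 0.0162). DESeq2 gave 1 lower and 1 higher, where 11.5% of all genes tested were lower. An unadjusted p under 0.05 was seen for 4 of the 15, below the share of all genes tested (4834 of 14436). Of 8 genes of SREBP processing, 0 fell and 1 rose, MBTPS1, the protease that makes the first cut in SREBP (log2 fold change 0.14, SE 0.04, adjusted p = 0.0168). Single calls in lists of 15 and 8 genes are near the shares over all genes tested. None of the 9 genes of the isoprenoid branches, which use farnesyl pyrophosphate for prenylation, dolichol and ubiquinone, passed in either direction in edgeR or DESeq2. An unadjusted p under 0.05 was seen for 2 of these 9, again below the share of all genes tested.

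**Figure D5:**
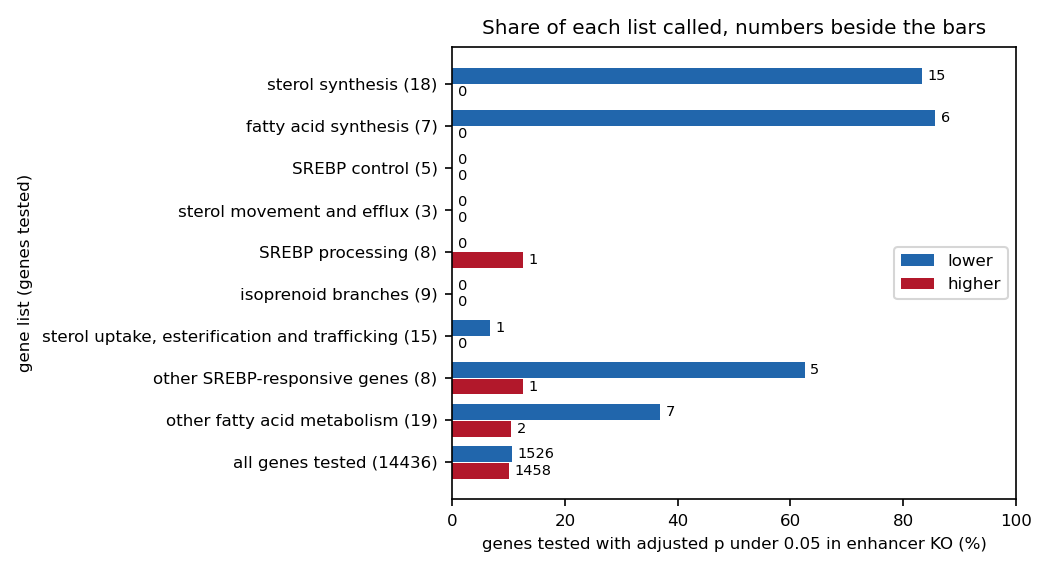
Percentage of the genes tested in each list that fell (blue) or rose (red) at an adjusted p under 0.05 in enhancer KO against SCR1, with the number of genes beside each bar and the number tested in brackets. Sterol synthesis (15 of 18), fatty acid synthesis (6 of 7) and other SREBP-responsive genes (5 of 8) have the longest bars, and all genes tested are at 10.6% lower and 10.1% higher.

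Promoter sequences, which the choice of the genes had not used, were examined for motifs. The SREBP factors activate most genes of both pathways, so the shares of motifs are not independent of that choice. RefSeq windows from 250 bases before to 50 bases after an annotated start (GRCh38.p14) were at hand for 29 of the 34 genes, 17 of them called, and a gene counted once when any of its windows held the motif on either strand. The NF-Y box CCAAT, a site that often accompanies SREBP sites, was present in 21 of 29 genes (72.4%), against 43.6% of the 10105 tested genes with a window. It was in 13 of the 17 called genes (76.5%) and in 8 of the 12 others (66.7%). The GC box GGGCGG was present in 28 of 29 (96.6%) against 76.4%, in 16 of the 17 called genes (94.1%) and in all 12 others. The E-box CACGTG was present in 5 of 29 (17.2%) against 12.5%, but in 1 of the 17 called genes (5.88%) and in 4 of the 12 others (33.3%). A core of the sterol regulatory element, TCACNCCAC, occurred in 1 gene, SREBF2 (3.45%), and in 0 of the 17 called genes, against 1.45%. Only this string was searched, so its absence does not show that a promoter lacks a sterol regulatory element. The HLF type of site, TTANGTAA, occurred in 0 of 29 against 1.70%, which says only that these letters are not in these windows. TCACNCCAC can run into CACGTG through its last letters, which did not occur in the stretches shown, and a match describes letters and not binding.

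The stretches upstream of every annotated start are shown for FDPS, the gene called with the smallest p that has a window, for ABCA1, the gene with the smallest p among those with a positive change, and for EBP and SREBF2, chosen after their values were seen for their motifs. They are chr1:155308616-155308747 and chr22:41832855-41833104 on the plus strand, chrX:48521558-48521798 on the plus strand and chr9:104928156-104928405 on the minus strand, written 5′ to 3′ along the gene. Capitals mark CCAAT or its reverse complement ATTGG, the sterol regulatory element core in SREBF2 and the E-box in ABCA1. Transcripts that start within 50 bases of the window's start site held 45.4% of the gene's counts for FDPS, 99.3% for EBP, 95.96% for SREBF2 and 100.0% for ABCA1.
FDPS: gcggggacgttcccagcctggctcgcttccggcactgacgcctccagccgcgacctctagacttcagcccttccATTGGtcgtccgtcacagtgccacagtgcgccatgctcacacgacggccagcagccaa
EBP: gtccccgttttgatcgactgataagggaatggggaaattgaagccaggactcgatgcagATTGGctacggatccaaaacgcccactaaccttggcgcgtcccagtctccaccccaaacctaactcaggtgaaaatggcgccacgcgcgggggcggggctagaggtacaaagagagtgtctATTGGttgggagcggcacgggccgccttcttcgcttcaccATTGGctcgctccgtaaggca
SREBF2: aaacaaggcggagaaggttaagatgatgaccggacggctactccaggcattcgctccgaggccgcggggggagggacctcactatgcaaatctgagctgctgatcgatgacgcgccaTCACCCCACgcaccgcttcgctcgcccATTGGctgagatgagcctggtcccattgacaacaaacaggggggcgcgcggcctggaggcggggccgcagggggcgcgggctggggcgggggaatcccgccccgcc
ABCA1: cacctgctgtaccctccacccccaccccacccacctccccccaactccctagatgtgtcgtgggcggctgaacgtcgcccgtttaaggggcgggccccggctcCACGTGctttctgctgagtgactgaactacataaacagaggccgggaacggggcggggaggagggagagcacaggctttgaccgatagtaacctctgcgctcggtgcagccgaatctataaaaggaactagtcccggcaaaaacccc
EBP holds 3 inverted CCAAT boxes, with their first bases at -191, -70 and -30 from the start site. The FDPS window also holds 3 CCAAT boxes in either orientation, at -176, -122 and -51, of which the shorter stretch shown contains the one at -176 and ends inside the one at -122. SREBF2 holds both an inverted CCAAT box, with its first base at -106 from the start site, and the sterol regulatory element core at -133, and its counts did not pass the test. ABCA1 holds an E-box and no CCAAT box.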

How the data were processed

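The authors trimmed paired-end reads of poly(A) libraries, aligned them with STAR to hg38 (GRCh38) and quantified transcripts with Salmon 1.10.1. They deposited estimated counts per transcript, not normalized, for 252835 transcripts of 62700 genes. They also deposited TPM, which Salmon derives from counts and effective lengths relative to the library total. No annotation release is given in the sources used here, and every identifier matched GENCODE release 44. Fractional values made up 87.8% of the deposited nonzero counts, since Salmon divides shared reads by likelihood.

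Groups came from the sample titles. Gene counts were rounded sums over each gene's transcripts, genes were kept by filterByExpr (minimum count 10), libraries were scaled by TMM, and differences were tested with the quasi-likelihood method of edgeR 4.0.16 in R 4.3.3 (threshold 0.05). KO was fitted as 1 group against SCR1, and the guides in a 3-group fit. The pooled fit and the MEF2C permutation took no account of guide, and all controls carried the same scrambled guide. Alternatives were DESeq2 1.42.0 (the study's tool), RLE factors, no filter, a gene length offset, limma 3.58.1 on log2(TPM + 1) and log2(TPM + 0.1), a replicate block and each library left out. The test was checked on simulated counts. Nothing says that replicates were separate cultures, so p-values measure the spread between these libraries. Counts of replicates differed more than sampling noise gives (chi-square over its degrees of freedom 4.31 to 8.59), so none was a duplicate. Same-numbered libraries did not deviate together (correlations -0.066 to 0.055).

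The members and lists were chosen with earlier results of these data known. Library values were given for each member called and for SREBF1, SREBF2, INSIG1, ABCA1, ABCG1, MYLIP, SQLE, FASN and SCD; of other lists at most 4 called genes were named, by smallest p. Some genes of both pathways were not analysed here, and 1 listed gene that was called is counted but not reported here by name.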

Additional observations from a re-analysis of the deposited data

Results flagged for a closer look

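The 6 KO values of 33 genes tested and of MEF2C were checked for a single library far from the other 5, and 3 of 34 had a gap to the others above the critical share of Dixon's test for 6 values, where chance gives about 1.7. CYP51A1 was lowest in sgRNA_97 replicate 3, at 40.45 CPM, with the other KO libraries at 52.05 to 56.53 CPM. FADS2 was highest in sgRNA_96 replicate 1, at 404.1 CPM, with the others at 331.9 to 354.6 CPM. MEF2C was highest in sgRNA_97 replicate 1, at 552.7 CPM, with the others at 494.9 to 510.2 CPM.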

How the results depend on the processing

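Under 17 alternatives the fall of the 21 genes called gave 334 of 357 results with the same direction and call, 23 that missed the threshold (FASN 9, IDI1 4, ELOVL6 3, NSDHL 3, CYP51A1 2, MVK 1, PMVK 1) and 0 in the opposite direction, and 14 genes passed throughout. Without SCR1 replicate 1, FASN, MVK, NSDHL and PMVK were lost. The KO count of members was 17 to 23 over all alternatives and 17 to 21 with a library left out. The sgRNA_96 count of 17 became 8 with the gene length offset and 6 in limma at either pseudocount, and 9 to 18 with a library left out. Of all genes, 5.41% fell with sgRNA_96 in the main fit, 1.77% with the offset and 1.26% and 1.24% in limma. The sgRNA_97 count of 19 became 13 with the gene length offset and 10 in limma at either pseudocount. It was 13 to 20 with a library left out. Of all genes, 7.76% fell with sgRNA_97 in the main fit, 2.85% with the offset and 2.4% and 2.39% in limma. All genes called in KO numbered 2984, and 1526 with the length offset, 1240 and 1246 in limma, 1503 without SCR1 replicate 1 and 1813 without SCR1 replicate 4. MEF2C passed the threshold in DESeq2 (-0.115) and without the pair of libraries apart on the second component (-0.135, chosen after seeing the data), and its log2 fold change was -0.142 to -0.106 with a library left out, passing only without sgRNA_97 replicate 1. Uncalled genes near 0 changed sign in 24 of 204 results, none past the threshold. With the length offset and in limma at log2(TPM + 1) and log2(TPM + 0.1), SCAP was at 0.022, 0.023 and 0.024, INSIG2 at -0.00697, -0.018 and -0.02 and STARD4 at -0.025, -0.025 and -0.026. SREBF2 was at -0.00929 without the filter and -0.00206 without the pair of libraries apart. With a library left out SREBF1 ranged from -0.03 to 0.077, SREBF2 from -0.013 to 0.018, SCAP from -0.04 to 0.021, INSIG2 from -0.011 to 0.113 and MYLIP from -0.016 to 0.108. The cause was not tested. Replicate numbers did not pair the libraries, and with the number as a replicate block the counts were 22 in KO (21 lower, ABCA1 higher), 18 with sgRNA_96, 19 with sgRNA_97 and 0 between the guides. Low counts limit ABCA1 and ABCG1.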
